A study of Mus musculus with 12 samples.

Results

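The 9 genes described here encode proteins that liver cells release into the blood to act on energy balance, lipid handling, mineral or selenium elsewhere in the body: Fgf21, Gdf15, Inhbe, Angptl4, Angptl8, Ahsg, Fetub, Lect2 and Selenop. They were chosen by name, as secreted metabolic signals of the liver (hepatokines), and each was found once among the 22557 genes of the deposited table. RNA sequencing was carried out on whole livers of 12 female, age-matched mice, of wild type (WT) genotype or knocked out (KO) for Mtdh, the gene of metadherin, and either free of tumour or bearing a mammary tumour of Py8119, a mouse mammary carcinoma cell line. The groups, each of 3 libraries from different mice, are WT_no_tumor, KO_no_tumor, WT_tumor and KO_tumor. Strain, age, the site of the tumour, and whether Mtdh was deleted in the whole body or in 1 cell type are not stated in the sources used here. The labelled cell type is all cells of the liver, so in these bulk samples fewer cells of a type and less RNA per cell cannot be told apart.

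Hepatokines link the state of the liver to other organs. FGF21, GDF15 and inhibin beta E are induced when hepatocytes sense nutrient or protein-folding stress, in part through the integrated stress response, in which the transcription factor ATF4 acts on composite C/EBP-ATF elements. ANGPTL4 inhibits lipoprotein lipase in fasting and ANGPTL8 bears on its activity after feeding, which directs triglyceride between tissues. The fetuins bind mineral and inhibit proteases, LECT2 is a leukocyte-attracting factor with several receptors, and selenoprotein P carries selenium to other organs.

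Values are normalised reads: the reads of a gene divided by a size factor for its library. The shallowest library, KO_tumor replicate 1, had an estimated depth of 12700000 reads, and the remaining libraries had 25700000 to 43000000. It also had 14899 genes above 0, against 17772 to 20365 elsewhere. Small nuclear RNAs took up 5.32% of the signal in KO_no_tumor replicate 3 and at most 2.05% elsewhere. Both stand apart, and most members' fold changes in the text that moved by over 1.5 times without both of them are given with and without them. Mtdh averaged 4890 ± 527 in WT_no_tumor and 4980 ± 914 in WT_tumor, against 549 ± 100 in KO_no_tumor and 589 ± 412 in KO_tumor (SD, n = 3), which fits the labels. Of the 10 hepatocyte markers 9 were in the table, all above 0, with a summed level of 2920000 to 4840000 per library. Adipocyte markers summed to 23.8 to 222 and the 2 pancreatic acinar markers in the table to at most 18.

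None of the 9 genes passed the test in any of 7 comparisons, although all 9 passed the filter on low values (at least 10 in at least 3 libraries). The test was limma on log2(value + 1) over 17380 genes, with Benjamini-Hochberg adjustment and a threshold of 0.05. For tumour against none, the share of all tested genes that passed was 0.679% in WT, 0% in KO and 1.06% for the mean of both genotypes. For KO against WT it was 0.00575% without a tumour, 0.023% with a tumour and 0.0115% for the mean of both states, and it was 0% for the interaction, the tumour effect in KO minus that in WT. At an unadjusted p under 0.05 the members numbered 4 of 9 for tumour in WT, 4 in KO and 4 for the mean, where 8.67%, 12.7% and 15.1% of all genes lay. They numbered 0 of 9 for KO without a tumour, 2 with a tumour, 2 for the mean and 1 for the interaction, against 1.93%, 14.4%, 10.3% and 4.7% of all genes. Under some alternatives Ahsg, Angptl4, Fetub or Angptl8 passed, with adjusted p-values as low as 0.00881 (Fetub, tumour mean, without KO_tumor replicate 2) and 0.0029 (Angptl8, KO against WT with a tumour, library weights). Of all genes 359 and 1664 passed in these 2 settings, against 185 and 4 in the main fit. Fold changes of the members are given as values with their errors.

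Groups of 3 livers that did not overlap were counted as a description. With tumour in WT 4 of 9 members did not overlap, Ahsg and Fetub higher and Angptl4 and Angptl8 lower, where 17.5% of all genes did not overlap (9.46% higher, 8.05% lower). In KO 4 of 9 did not overlap, Fgf21 and Angptl8 higher and Angptl4 and Selenop lower, where 16.8% of all genes did not (7.34% higher, 9.48% lower). Between the genotypes 1 of 9 did not overlap without a tumour, Gdf15, which was lower in KO (all genes 7.93%, with 3.56% higher and 4.37% lower). With a tumour 1 of 9 did not, Angptl8, which was higher in KO (all genes 17.9%, with 8.11% higher and 9.8% lower).

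**Figure D1:**
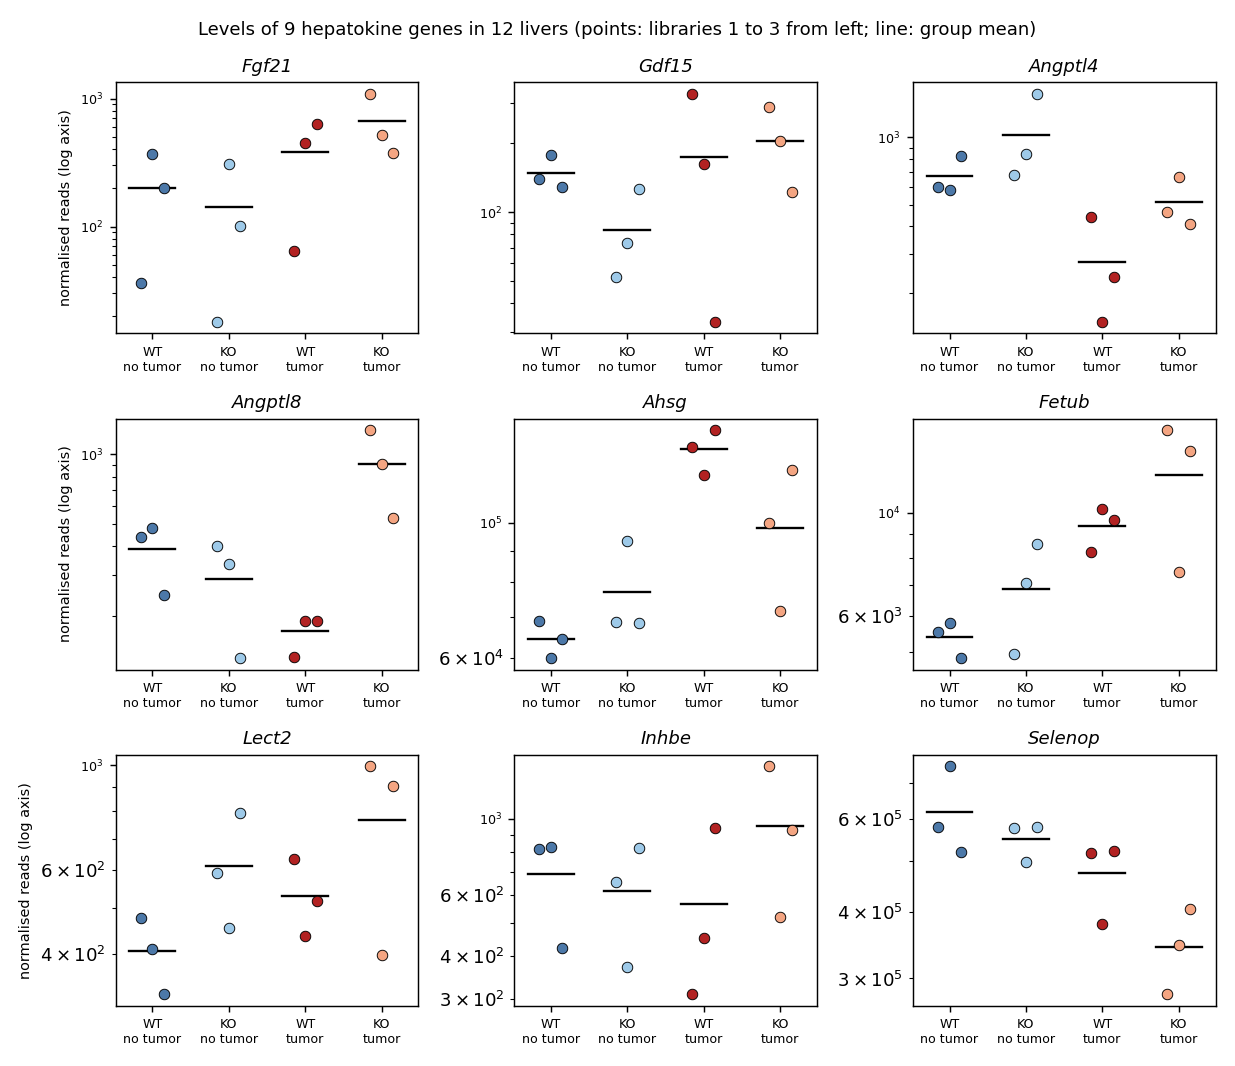
Normalised reads (log axis) of each of the 9 genes in WT_no_tumor, KO_no_tumor, WT_tumor and KO_tumor, with 1 point per library and a line at the group mean. The Fgf21 points span 18 to 1090, whereas those of Ahsg span 60000 to 142000.

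The liver devoted very different amounts of RNA to these genes. Per kilobase of the longest protein-coding transcript, median levels over the 12 libraries ran from 249000 for Selenop through 55700 for Ahsg and 4910 for Fetub to 593 for Lect2, 427 for Angptl8, 354 for Fgf21, 179 for Angptl4, 139 for Inhbe and 86.6 for Gdf15. The lowest library of Selenop (134000 per kilobase) lay above the highest of Ahsg (95900), whose lowest (40400) lay above the highest of Fetub (9460), and the lowest of Fetub (3050) above the highest of Lect2 (1190). Below Fetub, each gene's range over the libraries overlapped that of its neighbour in this order. By mean level Selenop ranked 4 among all genes in both groups without a tumour, 5 in WT_tumor and 7 in KO_tumor.

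Fgf21 (ENSMUSG00000030827, chr7:45263310-45264915, minus strand, mm39) encodes a hormone that acts on fat and brain through FGF receptors and the co-receptor beta-klotho. Its levels were 36.1, 368 and 199 in WT_no_tumor, 18, 306 and 101 in KO_no_tumor, 64.8, 449 and 631 in WT_tumor, and 1090, 521 and 375 in KO_tumor. All 3 KO_tumor livers lay above all 3 KO_no_tumor livers, while the WT groups overlapped and each group other than KO_tumor held 1 liver far below the others. The group means were 201 ± 166, 142 ± 148, 382 ± 289 and 664 ± 380 (SD, n = 3), in that order. On the log2 scale the difference of tumour from none was 2.83 ± 1.05 (SE) in KO (limma adjusted p = 0.35) and 0.93 ± 1.05 in WT (0.919), with an interaction of 1.91 ± 1.48 (0.859). KO_tumor replicate 1 was the highest of the 12, and without both libraries that stand apart the difference in KO was 2.54. With single libraries left out it ran from 1.76 to 3.77. In WT the difference ran from −0.03, without WT_no_tumor replicate 1, to 1.93 as single libraries were left out. The 61.0-fold span of Fgf21 over the libraries was the widest of the 9 genes (35.1-fold without both libraries that stand apart).

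The promoters of Fgf21, Angptl8 and Inhbe hold the 8 letters TGATGCAA, a composite C/EBP-ATF element, on one strand or the other. Windows from 250 bases before to 50 after an annotated start, from RefSeq on GRCm38.p6, were found for 8 of the 9 genes, 1 or more windows per gene. Of all 32851 such windows, 0.895% hold these letters on either strand, and of all 27025 genes 1.03% have such a window. The 3 sequences are shown because the stress response acts through this element. They are written 5′ to 3′ on the gene's strand with the element in capitals (TTGCATCA is TGATGCAA read on the other strand).
Fgf21, chr7:45615441-45615740, minus strand: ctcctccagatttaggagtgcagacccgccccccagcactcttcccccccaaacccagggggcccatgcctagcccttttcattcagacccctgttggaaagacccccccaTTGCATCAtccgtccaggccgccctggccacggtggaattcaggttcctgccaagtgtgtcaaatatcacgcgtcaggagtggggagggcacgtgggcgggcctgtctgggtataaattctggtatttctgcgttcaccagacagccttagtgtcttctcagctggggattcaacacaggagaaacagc
Angptl8, chr9:21835260-21835559, plus strand: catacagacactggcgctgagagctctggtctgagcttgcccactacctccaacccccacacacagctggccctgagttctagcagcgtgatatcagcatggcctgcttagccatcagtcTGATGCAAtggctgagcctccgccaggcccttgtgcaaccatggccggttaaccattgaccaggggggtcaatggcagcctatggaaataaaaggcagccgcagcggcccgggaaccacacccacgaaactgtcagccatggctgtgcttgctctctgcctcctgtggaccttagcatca
Inhbe, chr10:127351799-127352098, minus strand: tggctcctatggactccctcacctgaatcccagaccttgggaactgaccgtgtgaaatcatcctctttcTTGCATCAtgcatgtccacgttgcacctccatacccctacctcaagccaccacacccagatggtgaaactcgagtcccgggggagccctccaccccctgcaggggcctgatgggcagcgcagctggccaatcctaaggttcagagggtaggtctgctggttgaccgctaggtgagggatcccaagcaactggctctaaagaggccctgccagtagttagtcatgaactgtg
The element begins 139 bases before the start in Fgf21, 130 in Angptl8 and 181 in Inhbe. Other letters were searched on both strands and are given with the share of all genes that have such a window. CACGTG, an E-box, was found in Fgf21 and Gdf15 (8.09%), and TATAAA in Fgf21, Fetub and Selenop (15.7%). AGGTCA, a nuclear receptor element, was found in Gdf15 (18.1%), and TTGCNNAA, a C/EBP site, in Angptl8 and Ahsg (12.2%). TGACGTCA and TTCCNGGAA were in none of the 8 genes' windows and in 1.79% and 1.15% of all windows. The TTGCNNAA match in Angptl8 lies apart from its composite element. A match describes letters, not binding.

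A list of 20 target genes of the integrated stress response was set beside Fgf21. In tumour-bearing livers, averaged over both genotypes, 3 of the 20 rose and 0 fell, with a median log2 fold change of 0.68 against −0.04 over all genes. Of all genes 0.616% rose there. Aldh1l2, a mitochondrial folate enzyme, rose by 2.28 ± 0.46 (limma adjusted p = 0.033), Chac1, a glutathione-degrading enzyme, by 3.80 ± 0.79 (0.0387) and Psat1, of serine synthesis, by 1.99 ± 0.44 (0.0436). In WT alone 0 of 20 rose and 1 fell, the lipoprotein receptor gene Vldlr (−1.88 ± 0.39, 0.0448), while in KO alone 0 of 20 passed. The count of 3 was 1 without both libraries that stand apart. It was 0 without WT_no_tumor replicate 1 or 3, KO_no_tumor replicate 1 or 3, WT_tumor replicate 2 or 3, or KO_tumor replicate 3, and 4 without KO_tumor replicate 2. The call of Vldlr held only without WT_no_tumor replicate 3, KO_tumor replicate 1 or KO_tumor replicate 2 among single libraries left out. Atf4 and Ddit3, stress transcription factors, lay at 2290 to 4120 and 17.7 to 86.2 over the 12 libraries and passed in none of these comparisons.

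The per-liver mean of the stress list, as a centred log2 level, was −0.72, −0.15 and −0.64 in WT_no_tumor, −1.0, −0.25 and −0.44 in KO_no_tumor, 0.46, 0.95 and 0.84 in WT_tumor, and 0.59, −0.06 and 0.42 in KO_tumor. Every tumour-bearing liver lay above every liver without a tumour. The mean of 21 tested targets of PPARα, the fatty acid sensor that drives Fgf21 in fasting, was 0.26 to 0.88 in WT_no_tumor, 0.28 to 0.83 in KO_no_tumor, −1.42 to −0.29 in WT_tumor and −0.29 to 0.08 in KO_tumor. The livers with tumours thus combined higher stress scores with lower PPARα scores, and the Fgf21 levels among them ran from 64.8 to 1090. The part of the stress response or PPARα in the Fgf21 values was not tested.

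**Figure D2:**
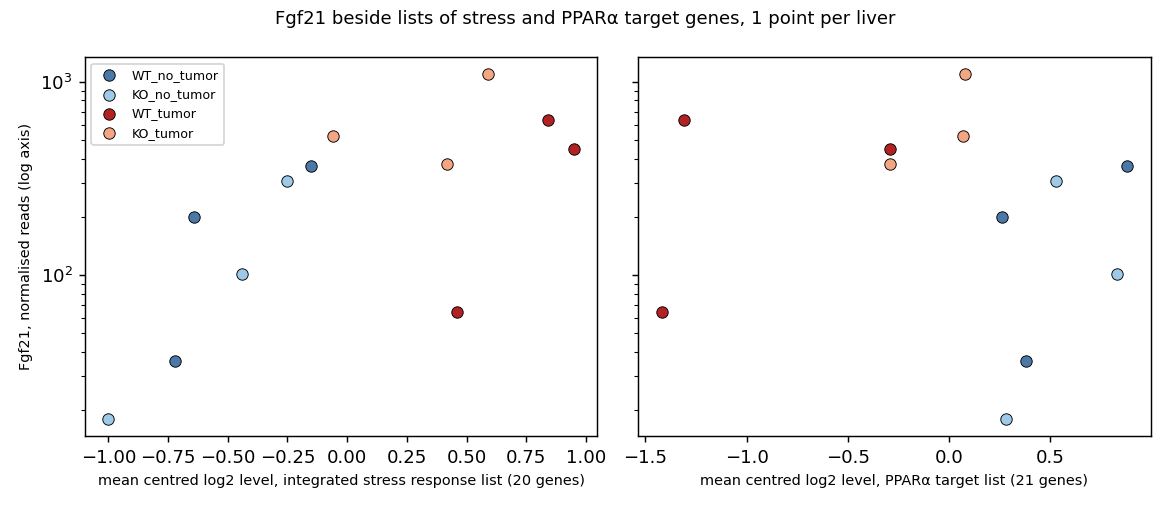
Fgf21 in normalised reads (log axis) against the mean centred log2 level of 20 stress response targets and of 21 PPARα targets, with 1 point per liver coloured by group. The tumour-bearing livers lie at stress scores of −0.06 to 0.95, and KO_tumor at PPARα scores of −0.29 to 0.08.

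Receptors of FGF21 were measured in the same livers. Klb, the co-receptor gene, lay at 764 to 1720, Fgfr4 at 341 to 1370 and Fgfr1 at 95.2 to 238 normalised reads, and 0 of the 13 genes of the FGF21 axis passed in tumour against none in either genotype. Gfral, the receptor gene of GDF15 in the brainstem, was not analysed here. The nearest patterns to Fgf21 over the 12 libraries among 11096 protein-coding genes with a mean of at least 50 were those of Cwc27 (Pearson r = 0.909), Fgf2 (0.898) and Xpa (0.885). These correlations are over libraries that share their depths and groups.

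Gdf15 (ENSMUSG00000038508, chr8:71082043-71085107, minus strand) encodes a stress cytokine of the TGF-β family that suppresses appetite. Its levels were 139, 177 and 129 in WT_no_tumor, 52.0, 73.7 and 126 in KO_no_tumor, 329, 162 and 33.2 in WT_tumor, and 288, 204 and 123 in KO_tumor. KO_no_tumor lay below WT_no_tumor without overlap, alone among the 9 genes. WT_tumor held both the highest and the lowest of the 12 livers. The KO difference without a tumour was −0.89 ± 0.68 (SE, limma adjusted p = 1), and that of tumour from none was −0.27 ± 0.68 in WT (0.985) and 1.29 ± 0.68 in KO (0.424). In WT the sign turned without WT_tumor replicate 3, to 0.65. Furin, whose protease activates many proproteins of this family, lay at 2540 to 5460 and did not pass.

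Inhbe (ENSMUSG00000047492, chr10:127184726-127190281, minus strand) encodes the inhibin beta E subunit, whose dimer is activin E, a liver signal to adipose tissue. Its levels were 820, 826 and 423 in WT_no_tumor, 656, 372 and 821 in KO_no_tumor, 310, 451 and 943 in WT_tumor, and 1420, 520 and 928 in KO_tumor, so that all 4 groups overlapped. KO against WT with a tumour was 0.79 ± 0.45 (SE, limma adjusted p = 0.418), tumour against none in KO 0.59 ± 0.45 (0.557) and the interaction 0.96 ± 0.64 (0.859). Without both libraries that stand apart these were 0.45, 0.49 and 0.86, and the first ran from 0.43 (without WT_tumor replicate 1) to 1.23 (without WT_tumor replicate 3) as each library was left out. Its gene lies within the span of the non-coding Gm47200 on the other strand, which was at most 6.15 in any library.

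Other genes of the activin pathway were measured too. Of 16 tested genes 1 rose with tumour in WT and 0 passed in the mean: Fst, which encodes follistatin, an activin antagonist and itself a hepatokine, rose from 402 ± 65.5 to 1580 ± 727 (log2 fold change 1.88 ± 0.35, limma adjusted p = 0.0258). The call of Fst ended without any single WT_no_tumor library, WT_tumor replicate 1 or WT_tumor replicate 3 (0.0565 to 0.147). In KO livers Fst was 361 ± 103 without and 372 ± 104 with a tumour, and KO against WT with a tumour differed by −2.03 ± 0.35 (0.0607). Inhbc, whose protein pairs with the beta E subunit, lay at 1000 to 2010 over the 12 libraries. The tumour difference in Inhbb, the beta B subunit gene, was 2.28 ± 0.80 in WT (0.337).

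Angptl4 (ENSMUSG00000002289, chr17:33992724-34000805, minus strand) encodes the fasting-induced inhibitor of lipoprotein lipase. Its levels were 601, 583 and 824 in WT_no_tumor, 679, 843 and 1570 in KO_no_tumor, 439, 149 and 236 in WT_tumor, and 464, 665 and 410 in KO_tumor. Within each genotype the tumour-bearing livers lay below the others without overlap, and the group mean with a tumour was 41.0% of that without in WT and 49.7% in KO. The tumour difference was −1.41 ± 0.39 in WT (SE, limma adjusted p = 0.167), −0.94 ± 0.39 in KO (0.37) and −1.17 ± 0.27 in the mean (0.0607). By an exact permutation test over 400 relabelings of tumour state within genotype, the difference gave p = 0.005, the smallest that these relabelings allow, two-sided and unadjusted over the 18 such tests. Without both libraries that stand apart the difference was −0.53 in KO (limma adjusted p = 0.911) and −0.97 in the mean (0.14).

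In KO the one high value, 1570, was that of KO_no_tumor replicate 3, and without this library the tumour difference in KO was −0.59. The KO difference in Angptl4 was 0.55 ± 0.39 without a tumour, or 0.19 without KO_no_tumor replicate 3. With a tumour it was 1.01 ± 0.39 (limma adjusted p = 0.273), and it ran from 0.64 (without WT_tumor replicate 2) to 1.42 (without WT_tumor replicate 1) as each library was left out. Angptl4 is a textbook target of PPARα, and of 21 tested PPARα targets, 5 fell with tumour in WT and 0 rose (median −0.91, all genes 0.00 with 0.247% past the test and lower), led by Cyp4a10 (−4.06 ± 0.43, limma adjusted p = 0.00157). In KO 0 of 21 passed, and with a tumour the KO livers had 19 of 21 targets with positive differences from WT (median 0.84, all genes −0.12 with 42.8% positive), 0 of them past the test. The counts varied with the libraries used: between 3 and 9 fell with tumour in WT as each was left out. Without WT_tumor replicate 2, 10 of 21 were higher in KO with a tumour, with library weights 12 were, and without both libraries that stand apart 1 was. Of all genes 211, 1664 and 9 passed in these settings. The part of PPARα in the Angptl4 values was not tested.

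Angptl8 (ENSMUSG00000047822, chr9:21746806-21748644, plus strand) encodes a feeding-induced regulator of lipoprotein lipase activity. Its levels were 440, 478 and 248 in WT_no_tumor, 403, 336 and 132 in KO_no_tumor, 133, 190 and 191 in WT_tumor, and 1270, 907 and 528 in KO_tumor. The tumour-bearing livers lay below the others in WT and above them in KO, both without overlap, and KO_tumor above WT_tumor without overlap. The WT_tumor mean was 44.1% of WT_no_tumor, whereas the KO_tumor mean was 3.11 times that of KO_no_tumor and 5.26 times that of WT_tumor. On the log2 scale the tumour difference was −1.14 ± 0.44 in WT (SE, limma adjusted p = 0.43) and 1.70 ± 0.44 in KO (0.324). The interaction was 2.83 ± 0.62 (0.796), rank 9 among all genes by p, and KO against WT with a tumour was 2.32 ± 0.44 (0.108), rank 18.

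Both libraries that stand apart bear on Angptl8: KO_no_tumor replicate 3 had its lowest value and KO_tumor replicate 1 its highest. Without both, the KO_tumor mean was 1.94 times that of KO_no_tumor, the tumour difference in KO was 0.91 and that of KO from WT with a tumour 2.02 (limma adjusted p = 0.0776), with an interaction of 2.05. Left out singly, KO_no_tumor replicate 3 took the tumour difference in KO to 1.20, and KO against WT with a tumour stayed between 2.02 and 2.66 as each library was left out. Angptl8 lies inside the span of Dock6 on the other strand (chr9:21711156-21763932), and strand use in the counting is not stated. Overlap of their exons was not examined, so it is not known whether the 2 genes share reads. Dock6 was 296, 234 and 459 in WT_no_tumor, 331, 363 and 224 in KO_no_tumor, 450, 367 and 336 in WT_tumor, and 722, 507 and 382 in KO_tumor. Adipocytes also make ANGPTL8. Their marker Adipoq was at 0 in 8 of the 12 libraries and at 37.0, 11.7 and 2.31 in KO_tumor. The summed adipocyte markers were 222, 35.1 and 74.9 there and 23.8 to 28.8 in WT_tumor. They were 42.1 to 76.3 in WT_no_tumor and 31.6 to 116 in KO_no_tumor. Of the 3 tested markers, 2 had positive and 1 a negative difference of KO from WT with a tumour. The part of adipocytes in the result was not tested.

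**Figure D3:**
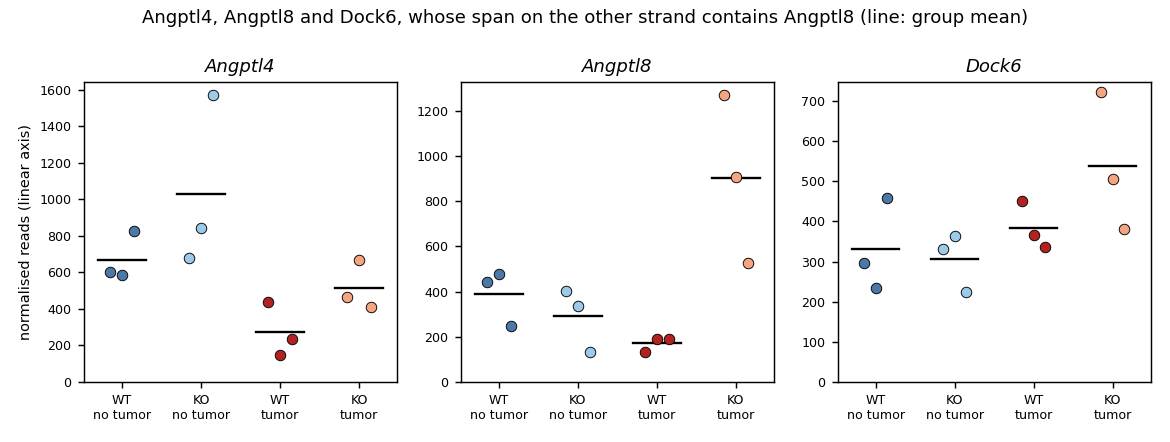
Normalised reads (linear axis) of Angptl4, Angptl8 and Dock6 by group, with 1 point per library and a line at the group mean. Angptl8 lies at 528 to 1270 in KO_tumor and at 133 to 191 in WT_tumor.

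Genes that share the setting of ANGPTL8 were listed beside it. Lpl, the lipoprotein lipase gene, was 2620 ± 1330 in WT_tumor and 1060 ± 309 in KO_tumor (SD, n = 3), a difference of −1.19 ± 0.36 (SE, limma adjusted p = 0.204). Among 17 genes of insulin, ChREBP and SREBP action, which include lipogenic genes, 15 had positive differences of KO from WT with a tumour (median 1.04, all genes −0.12 with 42.8% positive), with 0 past the test (6 with library weights, where 1664 of all genes passed, and 0 to 2 as each library was left out). The nearest were Me1, malic enzyme, at 2.26 ± 0.41 (0.0784), and Mlxipl, the ChREBP gene, at 1.04 ± 0.21 (0.111). With tumour in WT the same list had 3 of 17 positive (all genes 50.4%), a median of −0.60 and 0 past the test (4 fell with library weights, where 510 of all genes passed). That median was −0.29 without WT_no_tumor replicate 1, −1.15 without WT_no_tumor replicate 2, −0.36 without WT_tumor replicate 2 and −0.32 with quantile normalization. As a mean centred log2 level, the list stood at −0.97 in WT_no_tumor replicate 2, below all 3 WT_tumor livers (−0.81 to −0.43), and at 0.43 and 0.38 in the other WT_no_tumor livers. Of the 14 genes of the lipoprotein lipase axis, 11 had positive differences of KO from WT with a tumour and 3, Lpl among them, negative ones (median 0.59, all genes −0.12 with 42.8% positive). Of these 14, 0 passed the test (5 were higher with library weights and 3 without WT_tumor replicate 2, where 1664 and 211 of all genes passed). At an unadjusted p under 0.05 there were 7 higher and 1 lower, where 14.4% of all genes lay. In the same list 1 fell with tumour in WT, Lipc, hepatic lipase (−1.32 ± 0.25, 0.0265), a call that ended without any single WT_no_tumor library, WT_tumor replicate 1 or WT_tumor replicate 3. The patterns most like that of Angptl8 over the 12 libraries were those of Rmnd1 (r = 0.890), Egln1 (0.883) and Riox2 (0.867).

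Ahsg (ENSMUSG00000022868, chr16:22710027-22718200, plus strand) encodes fetuin-A, an abundant plasma glycoprotein that keeps calcium phosphate in solution. Fetub (ENSMUSG00000022871, chr16:22737084-22758529, plus strand) encodes its relative fetuin-B, an inhibitor of astacin proteases, and the 2 genes are neighbours with a gap of 18883 base pairs and 0 genes between them. Ahsg was 69000, 60000 and 64600 in WT_no_tumor, 68800, 93400 and 68500 in KO_no_tumor, 133000, 120000 and 142000 in WT_tumor, and 100000, 71800 and 122000 in KO_tumor. The WT_tumor livers lay well above WT_no_tumor, by a factor of 2.04 in the means, while the KO groups overlapped. Fetub was 5520, 5800 and 4860 in WT_no_tumor, 4950, 7060 and 8570 in KO_no_tumor, 8250, 10200 and 9640 in WT_tumor, and 15100, 7440 and 13600 in KO_tumor. Fetub also lay higher without overlap in WT, but overlapped between the KO groups through KO_tumor replicate 2.

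In fold terms, the tumour difference in Ahsg was 1.03 ± 0.30 in WT (SE, limma adjusted p = 0.201) and 0.33 ± 0.30 in KO (0.616; 0.22 without both libraries that stand apart), with an interaction of −0.70 ± 0.43. In Fetub it was 0.79 ± 0.26 in WT (0.294), 0.78 ± 0.26 in KO (0.331) and 0.79 ± 0.19 in the mean (0.0625), with an interaction of −0.01 ± 0.37. The exact permutation test of tumour state within genotype gave p = 0.01 for each gene, two-sided and unadjusted over 18 tests. Without both libraries that stand apart the mean difference in Fetub was 0.78 (limma adjusted p = 0.0819). KO against WT with a tumour was −0.46 ± 0.30 for Ahsg (0.473) and 0.31 ± 0.26 for Fetub (0.574), the latter 0.11 without KO_tumor replicate 1. Ahsg overlaps the non-coding Gm30505 on the other strand, which lay at 0 to 37.4.

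Of 10 tested genes of the cystatin family and related plasma protein genes, 4 rose with tumour in the mean of both genotypes and 0 fell, where 0.616% of all genes rose. Of the 10, 10 had positive differences (median 0.76, all genes −0.04 with 46.8% positive). The 4 were Itih3 (1.80 ± 0.20, SE, limma adjusted p = 0.00104), Itih4 (1.11 ± 0.19, 0.0134), Ambp (0.90 ± 0.17, 0.0229) and Itih1 (0.76 ± 0.16, 0.041), which encode chains of the inter-alpha-trypsin inhibitors and the bikunin precursor rather than fetuins. Itih1 was named after its value was seen. As each library was left out 1 (without KO_no_tumor replicate 1) to 8 (without KO_tumor replicate 2) rose, and 3 rose without both libraries that stand apart. The call of Itih1 held without KO_no_tumor replicate 2 or KO_tumor replicate 2 and ended without any other single library (0.0629 to 0.123). That of Ambp ended without WT_no_tumor replicate 1 or 2, KO_no_tumor replicate 1, WT_tumor replicate 1 or KO_tumor replicate 3 (0.0564 to 0.0707). In WT alone 1 of 10 rose, Itih3, and in KO alone 0 of 10 passed. Genes whose pattern over the 12 libraries was nearest that of Ahsg were Serpinf2 (r = 0.967), the antiplasmin gene, Atp6v0d2 (0.949) and Smpd3 (0.944). For Fetub they were Cfi, complement factor I (0.947), Ambp (0.939) and Tgfbi (0.936). The summed hepatocyte markers, products of the same cells, were 2920000 to 3380000 in WT_no_tumor and 3660000 to 4470000 in WT_tumor. They were 3270000 to 3630000 in KO_no_tumor and 3200000 to 4840000 in KO_tumor. Singly the 9 markers were mixed. With tumour 5 had positive and 4 negative differences in WT (median 0.06), and 6 and 3 in KO (median 0.07). The part of hepatocyte content in the fetuin differences was not tested.

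Lect2 (ENSMUSG00000021539, chr13:56690277-56696316, minus strand) encodes a leukocyte chemotactic factor that binds MET and TIE1. Its levels were 476, 409 and 328 in WT_no_tumor, 592, 453 and 793 in KO_no_tumor, 635, 436 and 517 in WT_tumor, and 996, 398 and 903 in KO_tumor. All 4 groups overlapped, with the KO means above the WT means in both states (613 ± 171 and 766 ± 322 against 405 ± 74.1 and 529 ± 100, SD, n = 3). The mean KO difference was 0.51 ± 0.24 (SE, limma adjusted p = 0.489), or 0.28 without both libraries that stand apart, and that of tumour from none 0.32 ± 0.24 (0.551). Met lay at 4380 to 8720 and Tie1 at 115 to 481, and 0 of the 8 genes of its axis passed in tumour against none.

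Selenop (ENSMUSG00000064373, chr15:3298029-3309991, plus strand) encodes selenoprotein P, which holds several selenocysteines, each read from a TGA codon that is elsewhere a stop. The coding sequence of GENCODE M21 (GRCm38) has 380 codons, ends in TAA and holds 10 in-frame TGA codons, the first at codon 59 and the others from 259 to 377. The selenium-rich end, codons 327 to 379, is shown because it is what sets this messenger apart, with its 6 in-frame TGA codons in capitals.
Selenop: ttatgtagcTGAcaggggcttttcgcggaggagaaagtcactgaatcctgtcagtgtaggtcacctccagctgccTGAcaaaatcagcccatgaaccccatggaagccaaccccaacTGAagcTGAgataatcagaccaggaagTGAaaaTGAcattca
Reads over these codons are counted like any others, so the levels measure messenger and not selenium-bearing protein.

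Selenop levels were 579000, 753000 and 519000 in WT_no_tumor, 575000, 497000 and 579000 in KO_no_tumor, 518000, 380000 and 521000 in WT_tumor, and 280000, 347000 and 406000 in KO_tumor. In KO the tumour-bearing livers lay below the others without overlap, while the WT groups overlapped narrowly, WT_tumor replicate 3 standing above WT_no_tumor replicate 3. The tumour means were 76.6% of the means without a tumour in WT and 62.5% in KO. Selenop made up 1.71% to 2.56% of the signal in livers without a tumour, 1.49% to 1.74% in WT_tumor and 0.892% to 1.44% in KO_tumor, KO_tumor replicate 1 being the lowest.

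The tumour difference in Selenop was −0.38 ± 0.54 in WT (SE, limma adjusted p = 0.957), −0.69 ± 0.54 in KO (0.562) and −0.54 ± 0.38 in the mean (0.526). Its own SD within groups was 0.24 on the log2 scale, but limma's mean-variance trend for genes this abundant has a prior SD of 0.96, so the moderated SD was 0.66. The exact permutation test of tumour state within genotype, which uses Selenop alone, gave p = 0.01 (two-sided, unadjusted over 18 tests). In the mean of both genotypes limma without the trend gave an adjusted p of 0.269. KO against WT with a tumour was −0.46 ± 0.54 (limma adjusted p = 0.687).

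Of the other 19 tested selenoprotein genes, 1 rose with tumour in WT and 0 fell: Gpx3, the plasma glutathione peroxidase, was 90.4 ± 27.6 without and 421 ± 141 with a tumour (SD, n = 3; log2 difference 2.21 ± 0.45, limma adjusted p = 0.0418). In KO it was 92.0 ± 34.6 without and 111 ± 32.2 with a tumour, and KO against WT with a tumour differed by −1.90 ± 0.45 (0.141). The call of Gpx3 held without KO_no_tumor replicate 2, KO_tumor replicate 1 or KO_tumor replicate 2 and ended without any other single library (0.0527 to 0.255). In KO 0 of 19 passed, and Dio1, a thyroid hormone deiodinase, had the smallest p there (−1.25 ± 0.35, 0.324). Of 13 tested genes of selenium handling 0 passed in tumour against none in either genotype or their mean. The patterns most like that of Selenop were those of Ndfip1 (r = 0.973), Tspan12 (0.965) and Fbxo33 (0.960).

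Cells other than hepatocytes make some of these proteins. Over WT_no_tumor, KO_no_tumor, WT_tumor and KO_tumor in turn, summed endothelial markers were 5350 to 7980, 6900 to 8180, 9410 to 11000 and 9910 to 16300. Those of stellate cells and fibroblasts were 10500 to 13200, 11000 to 12800, 18400 to 22400 and 14000 to 18000. Both sums were higher with a tumour, without overlap, in each genotype. Neutrophil markers summed to 70.7 to 243, 114 to 161, 471 to 845 and 119 to 389, and erythroid markers to 2170 to 4270, 2470 to 4320, 6320 to 10600 and 2460 to 11900. Cholangiocyte markers summed to 1420 to 1700, 1160 to 1390, 1880 to 2570 and 1340 to 2120, and mammary epithelial markers, some of which liver epithelium also makes, to 3550 to 4310, 3480 to 3940, 5140 to 8330 and 3500 to 8660. These 4 sums were higher in WT_tumor than in WT_no_tumor without overlap and overlapped between the KO groups. Singly, 7 of 7 tested neutrophil and 7 of 7 tested erythroid markers had positive differences with tumour in WT. Only 3 of 6 cholangiocyte and 5 of 8 mammary markers did (medians 0.22 and 0.09), the others being negative. In KO the positive ones were 4 of 7, 3 of 7, 5 of 6 and 3 of 8, in the same order. Kupffer cell and macrophage markers summed to 4400 to 9580, 4940 to 9750, 7370 to 10700 and 7310 to 11500, with overlap in both genotypes. Every marker found in the table was above 0 in some library. The part of these cells in the members' values was not tested.

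**Figure D4:**
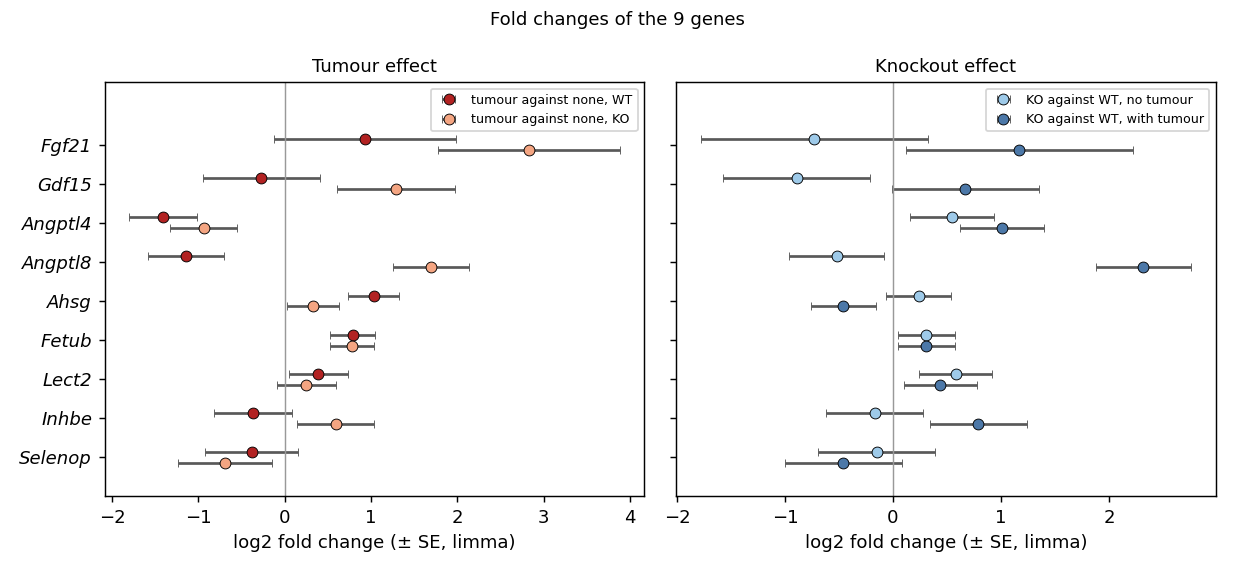
Log2 fold change (± SE, limma) of each of the 9 genes, with tumour effects by genotype and KO effects by tumour state. Angptl8 lies at −1.14 for tumour in WT and 1.70 in KO, on either side of 0, while Angptl4 is below 0 and Fetub above 0 in both. All values shown use the 12 libraries, and several KO effects moved without both libraries that stand apart. With a tumour Fgf21 went from 1.17 to 0.74, Gdf15 from 0.67 to 0.38 and Lect2 from 0.44 to 0.2. Without a tumour Angptl8 went from −0.52 to −0.02 and Fetub from 0.31 to 0.14.

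Side by side, the genes differed in how they varied among livers. Over the 12 libraries the highest level was 2.37 times the lowest for Ahsg, 2.69 for Selenop, 3.03 for Lect2 and 3.11 for Fetub, against 4.56 for Inhbe, 9.69 for Angptl8, 9.91 for Gdf15, 10.6 for Angptl4 and 61.0 for Fgf21. Without both libraries that stand apart it was 3.04 for Inhbe and 5.66 for Angptl4. Among pairs of members, log2 levels were most alike for Fetub with Lect2 (r = 0.72 over 12 libraries, 0.68 after centring within groups) and Ahsg with Fetub (0.71, 0.55). Angptl4 with Ahsg (−0.72) and Fetub with Selenop (−0.70) were the most opposed, and after centring these were −0.24 and −0.11. The most opposed pair after centring was Angptl4 with Angptl8 (−0.60, against 0.05 before). Lect2 with Inhbe (0.63) and Fetub with Inhbe (0.57) were then more alike than Ahsg with Fetub. The members' median fold change was −0.27 for tumour in WT (all genes 0.00) and 0.59 in KO (all genes −0.08), and 0.67 for KO against WT with a tumour (all genes −0.12), the last being 0.38 without both libraries that stand apart. These medians stand on 9 genes of different roles, and comparisons that share a group of livers are not independent of each other.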

How the data were processed

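RNA was sequenced from 12 livers, 3 per group. The deposited table holds 1 column per library of normalised signal on a linear scale: the authors scaled the reads of each library by a DESeq2 size factor, as its name states. STAR 2.7.8a, Partek, DESeq2 and mm39 are named per the submitters' processing notes. The counting program, annotation, filters and strand use are not stated in the sources used here, and overlapping and near-identical genes may share reads. Columns matched to no sample numbered 0. Depth was estimated from the value that low entries repeat, taken as 1 read. Between 78.0% and 84.9% of low values were whole multiples of it within 0.01 reads, too few for a count model.

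Genes that reached 10 in 3 or more libraries (17380) were fitted on log2(value + 1), with all 12 libraries in 1 model, by limma 3.58.1 in R 4.3.3 (eBayes with trend, two-sided, Benjamini-Hochberg within each of 7 comparisons). A fold change on this scale understates that of low genes. An exact permutation test relabelled livers within strata. An exact permutation test of 3 livers against 3 alone cannot go below p = 0.1. The code of the fit was also run on simulated data. These had independent normal noise and no library of low depth, so that run cannot show how the fit does on these livers. Symbols found numbered 246 of 263 on 22 lists.

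The 9 genes, the lists and the named-gene rule were chosen with earlier results of these data known. All 9 members are named, as are up to 3 genes per list and comparison by smallest p, 13 receptor, partner or cofactor genes, and the 3 protein-coding genes most correlated with each member. Alternatives were a pseudocount of 10, no filter, equal totals, quantile normalization, libraries of a comparison alone, robust eBayes, eBayes without trend (chosen after seeing the data), weights per library, a block for the replicate number, each library left out, and both libraries that stand apart left out. Counts of the pathway lists under these alternatives, and the members' ratios, spans and medians without both libraries, were added after seeing the data. The values of 1 listed gene are not reported here. Promoter windows were matched to RefSeq (GRCm38.p6) by symbol, for 8 of 9 genes. Transcript lengths and the coding sequence were from GENCODE M21, another build than the files'. The lengths were joined by Ensembl gene identifier and the coding sequence by symbol. Python 3.11.15, pandas 2.3.3, numpy 2.4.6 and matplotlib 3.10.9 were used.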

Additional observations from a re-analysis of the deposited data

Results flagged for a closer look

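Angptl8 differed in direction between genotypes: tumour-bearing livers lay below the others in WT and above them in KO, with no overlap in either, and the difference between these tumour effects was 2.83 ± 0.62 (SE) on the log2 scale. The interaction was tested with limma over all genes and did not pass (adjusted p = 0.796; unadjusted p = 0.00043). As each library was left out in turn the interaction ran from 2.34 to 3.18, and without both libraries that stand apart it was 2.05.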

How the results depend on the processing

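Of the members' fold changes under the alternatives 1307 kept their direction and their side of the threshold, 18 passed the threshold and 34 changed sign. For tumour in WT the number of members past the test was 1 with robust eBayes and 1 with library weights (Ahsg in both, limma adjusted p = 0.043 and 0.0491). For the tumour mean it was 2 with a pseudocount of 10 (Angptl4 0.0446, Fetub 0.0481), 1 with equal totals (Fetub 0.0396), 2 with quantile normalization (Angptl4 0.0477, Fetub 0.0237), 2 with robust eBayes (Angptl4 and Ahsg, both 0.0455), 3 with library weights (Angptl4 0.024, Ahsg 0.0349, Fetub 0.00914), and 0 to 2 with each library left out (2 without KO_tumor replicate 2, 1 without WT_tumor replicate 1). For KO against WT with a tumour it was 1 with library weights (Angptl8 2.0, 0.0029), 1 with a replicate block (Angptl8 2.32, 0.0476), and 0 to 1 with each library left out (1 without WT_tumor replicate 2, 0.0403). Every other count of members was 0 under the alternatives that could be fitted. All genes past the test were counted in the same settings. For tumour in WT they numbered 118 with robust eBayes and 510 with library weights (118 in the main fit). For the tumour mean they numbered 238, 178, 207, 193 and 856 in the order above (185 in the main fit). There were 359 without KO_tumor replicate 2 and 78 without WT_tumor replicate 1. For KO against WT with a tumour they numbered 1664, 13 and 211 in the order above (4 in the main fit). Over 18 pairs of livers with the same replicate number the correlation of deviations was −0.094 to 0.1. These numbers are from the sample titles, and the column names number the KO_no_tumor livers otherwise. By the column names WT_no_tumor replicate 3 and KO_no_tumor replicate 2 share a number, and their correlation was 0.146. The check thus cannot decide whether livers were paired. The replicate block moved no other count of members. Among pathway genes named, it ended the calls of Chac1 and Psat1 (both 0.0564), Itih1 (0.0568) and Manf (0.0503) in the tumour mean, and of Gpx3 (0.078) and Vldlr (0.0668) in WT, which left 1 of the 20 stress response targets in the mean.

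Signs changed for Gdf15 with library weights (0.36 for tumour in WT, −0.35 for KO with a tumour), for the Angptl8 tumour mean (−0.06 with library weights, −0.11 without both libraries that stand apart), for the Fgf21 mean KO difference (−0.07 without both), and for the Fetub interaction (0.02 with equal totals, 0.03 with quantile normalization, 0.13 with library weights). With each library left out, tumour in WT ranged from −0.03 to 1.93 for Fgf21 and −0.98 to 0.65 for Gdf15, and the Inhbe tumour mean from −0.11 to 0.30. KO without a tumour ranged from −0.27 to 0.00 for Selenop, −1.69 to 0.34 for Fgf21 and −0.49 to 0.15 for Inhbe. Gdf15 ranged from −0.26 to 1.38 for KO with a tumour and −0.57 to 0.24 for the mean KO difference, and Fgf21 from −0.28 to 0.76 for the latter. The interaction ranged from −0.23 to 0.31 for Fetub and −0.38 to 0.28 for Lect2. The cause of these shifts was not tested. For the means and the interaction, fitting the libraries of a comparison alone gives no value. Among the pathway lists, eBayes without the trend left 1 cystatin-related gene and 3 PPARα targets past the test with tumour in WT, the same numbers in the mean, and 0 in each other list. With 3 mice per group and 1 library of low depth, the median SE of a log2 difference between 2 groups was 0.50 over all genes.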

Other observations

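Hepatokine genes beyond the 9 described were also measured. Of 24 tested, 3 rose and 0 fell with tumour in WT, where 0.432% of all genes rose: Fgl1, a liver factor that binds LAG-3, from 5290 ± 394 to 25600 ± 1980 (SD, n = 3; log2 fold change 2.28 ± 0.34, limma adjusted p = 0.00814), Igfbp1, an insulin-like growth factor binding protein (3.33 ± 0.62, 0.0261), and Fst. In KO 0 of 24 passed, with Fgl1 at 7940 ± 3620 without and 18200 ± 8600 with a tumour (1.21 ± 0.34, 0.324). In the mean of both genotypes 3 rose and 1 fell, where 0.616% of all genes rose and 0.449% fell: Fgl1 (1.74 ± 0.24, 0.00398), Igfbp1 (2.68 ± 0.44, 0.0109) and Manf, a factor released under endoplasmic reticulum stress (1.20 ± 0.23, 0.0282), rose, while Tsku fell (−0.79 ± 0.18, 0.0476). Tsku was named after its value was seen. As each library was left out, 0 (without WT_no_tumor replicate 1 or 2, or WT_tumor replicate 3) to 4 rose in WT and 2 to 4 in the mean. The call of Tsku held without WT_tumor replicate 2 or KO_tumor replicate 2 and ended without any of the other 10 libraries (0.0584 to 0.124), without both libraries that stand apart (0.101), with equal totals (0.128) and with quantile normalization (0.113). That of Manf ended without WT_no_tumor replicate 1 or 2, KO_no_tumor replicate 1, WT_tumor replicate 1 or 2, or KO_tumor replicate 3 (0.0549 to 0.083). In WT the call of Igfbp1 ended without WT_no_tumor replicate 1 or 2, or WT_tumor replicate 1 or 3 (0.113 to 0.138). With robust eBayes Igfbp1 passed neither in WT (0.124) nor in the mean (0.0533). The median over the list was 0.25 against −0.04 over all genes.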
